A study of Mus musculus with 4 samples.

Results

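The genes described here are 10 chemokine genes of the mouse: Ccl2, Ccl5, Ccl7, Cxcl1, Cxcl2, Cxcl5, Cxcl10, Cxcl12, Cxcl13 and Cx3cl1. Every array probe whose RefSeq accession belongs to one of them was taken, which gave 11 probes on 20 spots of an array that carries 20956 named genes with a usable value. Their RNA was measured in 3T3-L1 cells, a line of mouse embryonic fibroblasts committed to the fat lineage. The groups were Lamp2a knockdown cells at day 2, control cells at day 2, knockdown cells at day 0 and control cells at day 0 of adipogenesis, with 1 array per group. Day 0 is confluence in growth medium with 10% serum, and at day 2 the cells of both kinds had been kept in that medium with 0.5 mM isobutylmethylxanthine, 250 nM dexamethasone and 160 nM insulin. LAMP2A is the lysosomal receptor of chaperone-mediated autophagy. The sources used here do not name the method of knockdown or the treatment the control cells received. With 1 array per group no test could be run and no difference was checked against other cultures, and 2-fold was used as a fixed size for calling a difference.

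Chemokines are small secreted proteins that draw leukocytes along a gradient to a tissue, acting on receptors of the leukocyte surface. Adipocyte precursors and fibroblasts are a source of them in fat tissue, where they take part in the entry of macrophages and other immune cells. Many are immediate targets of NF-kB, the transcription factor set free when inflammatory receptors are engaged, some need interferon signalling as well, and glucocorticoids such as dexamethasone hold many of them down. Others are made steadily by stromal cells to keep lymphocytes and progenitors in place.

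The promoter letters of 4 members are shown because these genes mark different behaviours in the arrays: Cxcl1 was higher at day 2, its genomic neighbour Cxcl2 was not detected, Cxcl10 was lower and Cxcl13 came up from background. Each line gives the 250 bases before the gene's start in RefSeq's GRCm38.p6, 5′ to 3′ on the gene's own strand, and capitals mark matches to either searched motif.
Cxcl1, chr5:90890995-90891244, plus strand: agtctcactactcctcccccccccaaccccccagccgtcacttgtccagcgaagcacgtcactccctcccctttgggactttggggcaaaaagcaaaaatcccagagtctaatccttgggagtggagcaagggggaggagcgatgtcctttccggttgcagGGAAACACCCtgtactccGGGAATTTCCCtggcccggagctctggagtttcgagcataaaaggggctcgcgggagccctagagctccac
Cxcl2, chr5:90903649-90903898, plus strand: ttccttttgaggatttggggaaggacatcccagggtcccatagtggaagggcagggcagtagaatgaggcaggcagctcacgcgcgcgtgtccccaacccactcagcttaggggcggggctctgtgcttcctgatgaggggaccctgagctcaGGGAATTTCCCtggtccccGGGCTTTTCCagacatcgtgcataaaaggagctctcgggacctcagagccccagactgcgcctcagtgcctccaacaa
Cxcl10, chr5:92348890-92349139, minus strand: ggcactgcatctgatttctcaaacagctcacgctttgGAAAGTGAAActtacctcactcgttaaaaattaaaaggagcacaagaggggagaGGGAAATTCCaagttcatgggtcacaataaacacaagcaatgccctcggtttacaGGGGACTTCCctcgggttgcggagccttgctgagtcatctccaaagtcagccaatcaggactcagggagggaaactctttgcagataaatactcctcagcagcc
Cxcl13, chr5:95956689-95956938, plus strand: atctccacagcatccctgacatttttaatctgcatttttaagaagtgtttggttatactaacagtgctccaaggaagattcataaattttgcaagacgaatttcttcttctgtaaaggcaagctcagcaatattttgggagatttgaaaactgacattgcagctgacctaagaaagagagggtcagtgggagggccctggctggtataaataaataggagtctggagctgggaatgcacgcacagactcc
The kappa-B motif, which NF-kB binds, was searched on both strands as GGG, any 3 bases and TTCC, and the interferon-stimulated response element (ISRE) on both strands as GAAA, any 2 bases and GAAA. Cxcl1 held 3 kappa-B matches. One lay 89 to 80 bases upstream of the start, and an overlapping pair, 1 on each strand, lay at 71 to 62 and 70 to 61. Cxcl2 also held 3, an overlapping pair at 97 to 88 and 96 to 87 bases upstream and another at 78 to 69. Cxcl10 held kappa-B matches at 159 to 150 and 104 to 95 bases upstream and an ISRE match at 213 to 204, which overlaps neither. Cxcl13 had no match to either motif in this window, and neither did Cxcl12 or Cx3cl1. Of 32851 mouse promoters of the same length, 4.65% held the kappa-B letters and 2.98% the ISRE letters. Of the 10 members, 6 are in the promoter table, and Ccl2, Ccl5, Ccl7 and Cxcl5 are named only. A match describes the letters and not a bound site.

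Several facts of the arrays touch the comparisons. The control day 0 array lies on slide 1 and the other 3 on slide 2. For knockdown against control at day 0, and in the control time course, slide and group therefore cannot be told apart. Knockdown against control at day 2 and the knockdown time course lie within slide 2. A multiplicative detrending was applied on every array but knockdown day 0. In the knockdown time course and in knockdown against control at day 0, the compared arrays thus differ in processing as well. Dim probes also read low on the control day 0 array: 1072 olfactory receptor genes, not known to be active in fibroblasts, had a median signal of 11.2 there and of 23.6 to 39.8 on the other arrays. The share of all genes past 2-fold is thus given also for 11394 bright genes, whose mean level is above the 95th percentile of the olfactory receptors. The Lamp2 probe annotated to NM_001017959 had signals of 3575 in knockdown and 14116 in control cells at day 2, and of 7931 and 31300 at day 0, which is 3.51-fold and 4.13-fold lower in knockdown cells. By the probe of NM_010685 the reduction was 1.08-fold at day 2 and 1.29-fold at day 0, and which splice form a probe reads is not stated in the files. All 9 preadipocyte and fibroblast markers, among them Pdgfra, Col1a1 and Vim, were well above background on every array. No day 2 culture without the hormones was measured, so hormones and time cannot be told apart. In RNA from a whole culture, fewer cells making a transcript and less of it per cell cannot be told apart either.

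Of the 10 genes, 8 were well above background on all 4 arrays: Ccl2, Ccl5, Ccl7, Cxcl1, Cxcl5, Cxcl10, Cxcl12 and Cx3cl1. Cxcl13 was well above background on every array except control day 0, and Cxcl2 on none, so 9 genes could be compared. Values are given as scaled signal, the processed signal of a probe divided by the 75th percentile of all spots on its array, and a level of one probe is not set against that of another. Within arrays, bright probes printed 10 times had a median spot SD of the log2 ratio of 0.0355 for knockdown against control at day 2, 0.054 at day 0, 0.0665 for the knockdown time course and 0.0725 for the control time course. These SDs hold the error of spots only. They stand in for the members, of which Ccl2 alone has repeat spots. The plot of signals by array shows that the same genes were detected in every group apart from Cxcl13.

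**Figure D1:**
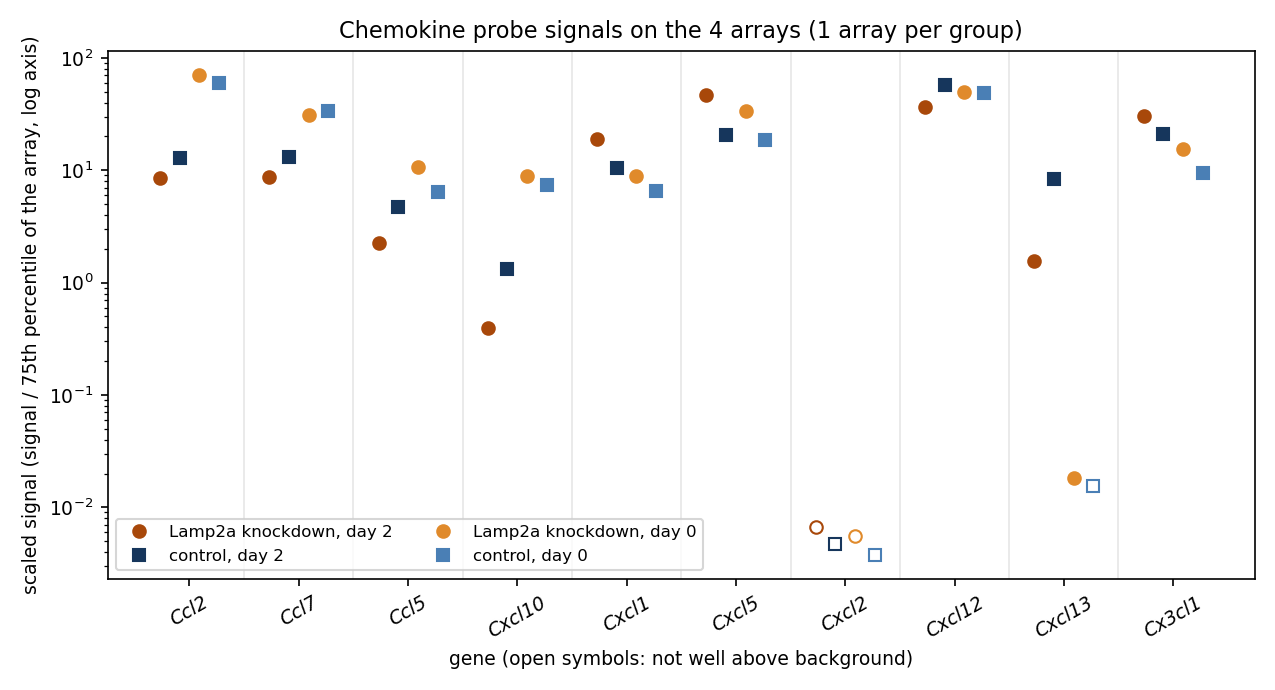
Scaled signal (log axis) of the probe that stands for each chemokine gene on the 4 arrays, circles for Lamp2a knockdown and squares for control, dark symbols for day 2 and light ones for day 0, and open symbols where the probe was not well above background. Ccl2, Ccl7, Ccl5 and Cxcl10 lie lower at day 2 in both kinds of cell, Cxcl1, Cxcl5 and Cx3cl1 lie higher, and Cxcl13 lies at 1.57 in knockdown and 8.43 in control cells at day 2 and near background at day 0.

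During induction the 9 genes compared split, and 3 of them in knockdown and 4 in control cells stayed within 2-fold. At day 2 the monocyte attractants Ccl2 and Ccl7 and the T cell attractant Cxcl10 were at least 2-fold lower than at day 0 in both kinds of cell, and Cxcl13, the B cell attractant, was far higher in both. Ccl5 was past 2-fold lower and Cxcl1 past 2-fold higher in knockdown cells and not in control cells, and Cx3cl1 was past 2-fold higher in control cells and not in knockdown cells. Whether the time courses differ was not tested. In knockdown cells 4 of the 9 genes compared were at least 2-fold lower at day 2, where 8.94% of all genes were, and 2 were at least 2-fold higher, where 4.97% of all genes were. In control cells 3 of 9 were at least 2-fold lower, against 8.08% of all genes, and 2 were higher, against 19.9%. Among bright genes the shares were 9.22% lower and 6.17% higher in knockdown cells, and 7.75% lower and 7.60% higher in control cells. The median log2 ratio of the 9 genes was -0.45 in knockdown cells, beside 0 over all genes, and 0.17 in control cells, beside 0.18 over all genes. Both medians depend on the Cxcl12 probe that was used. The knockdown median is the Cxcl12 value itself, which is -0.35 by its other probe. In control cells Cxcl12 was 0.23 by the probe used and -0.60 by the other, which would lower the control median. Of the genes past 2-fold in the control time course, 71.1% were higher, and 61.7%, 37.2% and 30.1% were so after normexp background correction, quantile and cyclic loess normalization.

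**Figure D2:**
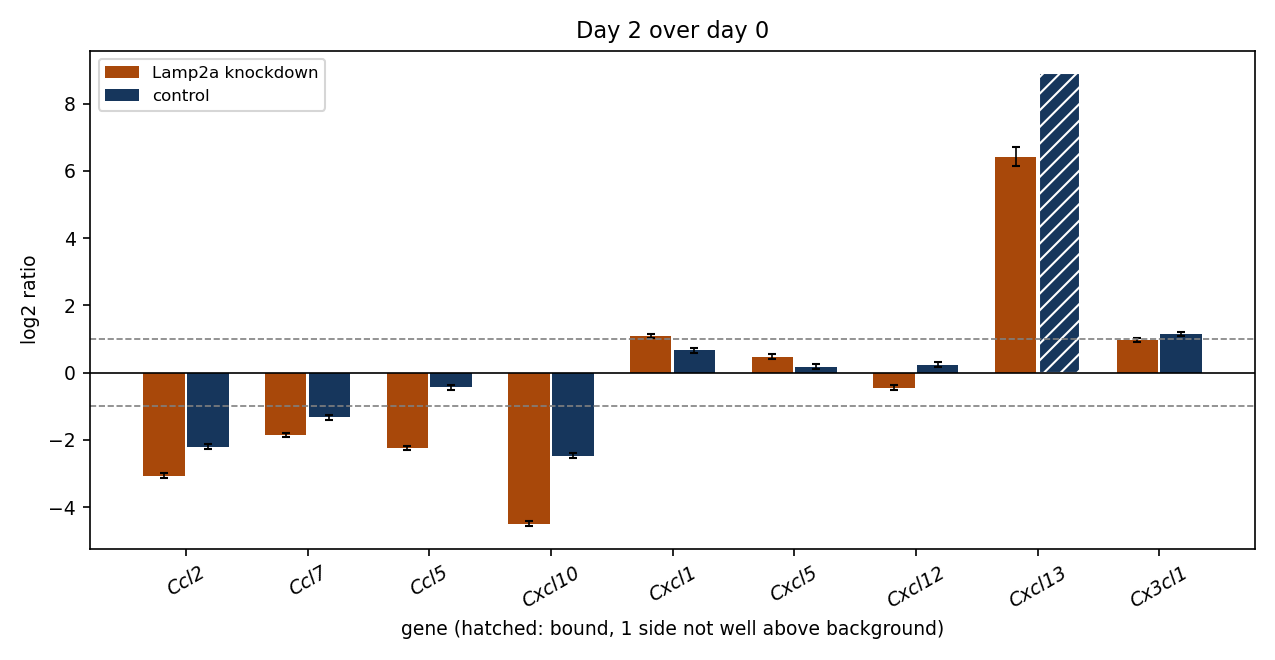
Log2 ratio of day 2 over day 0 for 9 chemokine genes in Lamp2a knockdown cells (left bar of each pair) and control cells (right bar), with the spot SD of the log2 ratio as error bars, dashed lines at 2-fold and a hatched bar where the ratio is a bound. Cxcl10 has the deepest bars below 0, at -4.49 in knockdown and -2.47 in control cells, and Cxcl13 the highest, at 6.43 in knockdown and at least 8.90 in control cells.

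Between knockdown and control cells, members passed 2-fold at day 2 in both directions, and at day 0 in neither. At day 2 Cxcl5, a neutrophil attractant, was at least 2-fold higher in knockdown cells, and Ccl5, Cxcl10 and Cxcl13 were at least 2-fold lower. That is 1 of 9 genes higher, where 2.86% of all genes were, and 3 of 9 lower, where 3.98% of all genes were. Among bright genes 3.02% were higher and 3.61% lower. At a size of 1.5-fold, 3 of 9 were higher at day 0, where 29.1% of all genes were. At day 2, 2 of 9 were higher and 6 lower, where 7.97% and 8.97% of all genes were. The 6 include Cxcl12 by the brighter of its probes, while its other probe was 1.56-fold higher in knockdown cells at day 2. The median log2 ratio of the 9 genes was -0.62, beside 0 over all genes and 0.04 over bright genes. At day 0 none of the 9 passed 2-fold in either direction. Of all genes 18.3% were higher and 4.18% lower in knockdown cells, and of bright genes 5.63% and 3.10%. The 9 genes are all bright, so the bright shares are the nearer comparison, and none of 9 lies near them. The median of the 9 genes at day 0 was 0.28, beside 0.12 over all genes and -0.02 over bright genes. With the other Cxcl12 probe, at 0.39 and not 0.03, this median would be higher. Of the genes past 2-fold at day 0, 81.4% were higher, and 70.4%, 45.8% and 36.2% were so after normexp, quantile and cyclic loess.

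**Figure D3:**
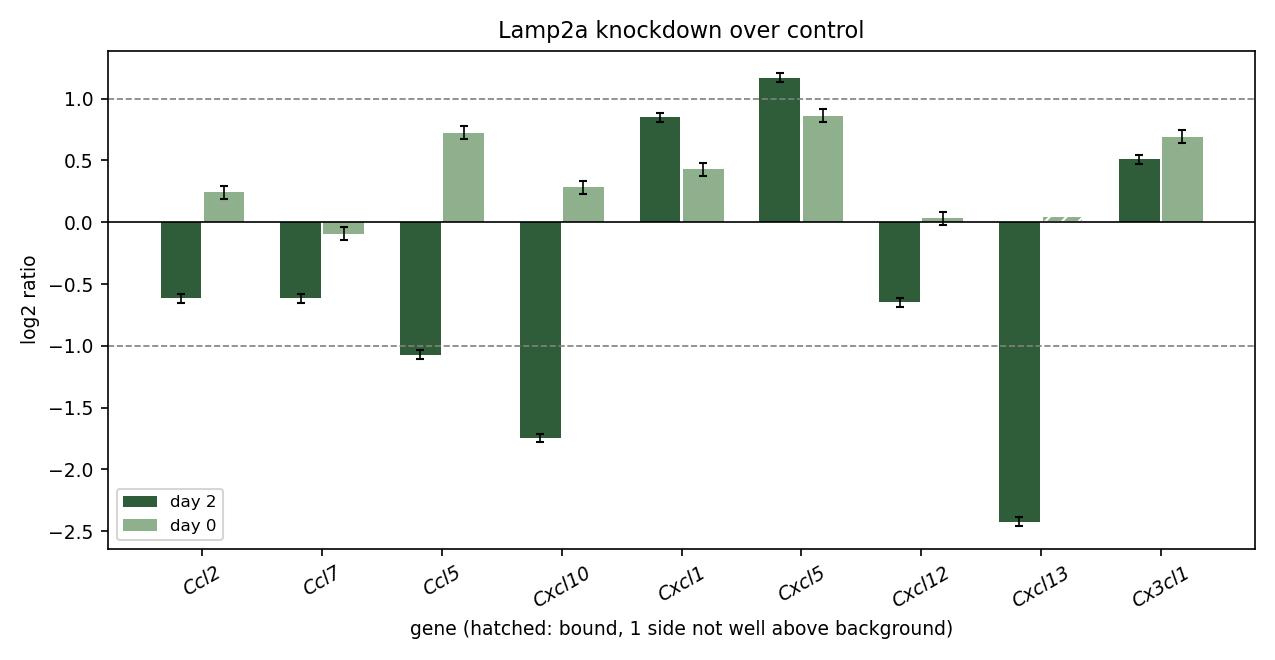
Log2 ratio of Lamp2a knockdown over control for 9 chemokine genes at day 2 (left bar of each pair) and day 0 (right bar), with the spot SD of the log2 ratio as error bars, dashed lines at 2-fold and a hatched bar where the ratio is a bound. No day 0 bar reaches 2-fold, and at day 2 Cxcl5 (1.17) lies above it and Ccl5 (-1.07), Cxcl10 (-1.75) and Cxcl13 (-2.42) below it.

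Ccl2, the chief attractant of monocytes, which acts on the receptor CCR2, was the member with the most spots. Its scaled signal was 8.47 in knockdown and 13.0 in control cells at day 2, and 70.9 in knockdown and 60.0 in control cells at day 0. The gene was thus high at confluence and low after induction in both kinds of cell, with the lowest value in knockdown cells at day 2. Day 2 was 8.37-fold lower than day 0 in knockdown cells and 4.61-fold lower in control cells. Knockdown cells were 1.53-fold below control cells at day 2 and 1.18-fold above them at day 0, both under 2-fold. The 10 spots of its probe ran from 8.13 to 8.91 in knockdown cells at day 2 (median 8.49), and 9 kept spots from 12.5 to 13.4 in control cells (median 13.1). At day 0 the spots ran from 63.7 to 74.1 in knockdown cells (median 72.0) and from 56.5 to 62.8 in control cells (median 60.1). The spots of the compared arrays did not overlap on either day, but they repeat 1 RNA sample and say nothing of the spread between cultures. Over the 9 spots kept on all arrays, the log2 ratio of knockdown over control lay between -0.63 and -0.58 at day 2 and between 0.19 and 0.33 at day 0.

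Ccl7, another monocyte attractant that shares CCR2 and lies next to Ccl2 on chromosome 11, had scaled signals of 8.64 in knockdown and 13.2 in control cells at day 2. At day 0 the values were 31.3 in knockdown and 33.4 in control cells. Both day 2 values lay below both day 0 values, and the lowest was again that of knockdown cells at day 2. The decline was 3.62-fold in knockdown cells and 2.52-fold in control cells. Knockdown cells were 1.53-fold below control cells at day 2 and 1.07-fold below them at day 0; the day 0 log2 ratio was -0.09, with a spot SD of 0.054.

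Ccl5, which draws T cells and monocytes and is induced by NF-kB and interferon factors together, had scaled signals of 2.25 in knockdown and 4.73 in control cells at day 2. At day 0 they were 10.6 in knockdown and 6.42 in control cells. The groups were therefore in opposite order on the 2 days, knockdown cells being the highest of all at day 0 and the lowest of all at day 2. At day 2 Ccl5 was 2.10-fold lower in knockdown cells, just past the 2-fold size, with log2 ratios from -1.13 to -1.06 over the processing settings. At day 0 it was 1.65-fold higher. Between the days it was 4.70-fold lower at day 2 in knockdown cells and 1.36-fold lower in control cells.

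Cxcl10, which draws activated T cells and natural killer cells through CXCR3 and was first known as an interferon-induced protein, changed more between the days than any other member that was lower at day 2. Its scaled signal was 0.397 in knockdown and 1.33 in control cells at day 2, against 8.94 in knockdown and 7.36 in control cells at day 0. The day 0 values lay close together and the day 2 values apart, with knockdown cells lowest. Day 2 was 22.5-fold lower than day 0 in knockdown cells and 5.53-fold lower in control cells. Knockdown cells were 3.35-fold below control cells at day 2 and 1.22-fold above them at day 0. The promoter printed above holds matches for both kappa-B and the ISRE.

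Cxcl1 and Cxcl5 are neutrophil attractants that act on CXCR2, and both were highest in knockdown cells at day 2. Cxcl1 had scaled signals of 18.8 in knockdown and 10.5 in control cells at day 2, and of 8.88 in knockdown and 6.60 in control cells at day 0. Knockdown cells were thus above control cells on both days, and day 2 above day 0 in both kinds of cell. The knockdown difference was 1.80-fold at day 2 and 1.34-fold at day 0. Day 2 was 2.12-fold higher than day 0 in knockdown cells and 1.59-fold higher in control cells. The knockdown time course dropped below 2-fold after quantile and cyclic loess normalization, at log2 ratios of 0.98 and 0.94.

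Cxcl5 had scaled signals of 46.8 in knockdown and 20.8 in control cells at day 2, and of 33.6 in knockdown and 18.5 in control cells at day 0. Both knockdown values lay above both control values, and the control values differed little between the days. Knockdown cells were 2.25-fold higher at day 2 and 1.82-fold higher at day 0. Between the days Cxcl5 was 1.39-fold higher at day 2 in knockdown cells and 1.13-fold higher in control cells. Of the 9 genes it was the 1 in which knockdown cells were higher by 2-fold, and its day 2 log2 ratio lay between 1.09 and 1.17 over the processing settings.

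Cxcl2, the third CXCR2 ligand among the members, gave processed signals of 7.42 in knockdown and 5.85 in control cells at day 2, and of 9.20 in knockdown and 6.04 in control cells at day 0. None of these was well above background, so no difference is given. Cxcl2 lies next to Cxcl1 on chromosome 5, and each promoter holds 3 kappa-B matches, 2 of them an overlapping pair.

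Cxcl12, made steadily by stromal cells to retain progenitors and lymphocytes that carry CXCR4, has 2 probes, and they differ. The brighter one, annotated to NM_021704, stands for the gene in the counts. Its scaled signal was 36.7 in knockdown and 57.4 in control cells at day 2, and 49.98 in knockdown and 48.9 in control cells at day 0. By this probe knockdown cells were 1.57-fold lower at day 2 and 1.02-fold higher at day 0. The probe annotated to NM_001012477 had scaled signals of 31.4 in knockdown and 20.1 in control cells at day 2, and of 40.0 in knockdown and 30.5 in control cells at day 0. By that probe knockdown cells were 1.56-fold higher at day 2 and 1.31-fold higher at day 0, so the probes disagree in direction at day 2. They disagree in the control time course as well, where day 2 was 1.17-fold higher by the first and 1.52-fold lower by the second. In knockdown cells both read lower at day 2, by 1.36-fold and 1.27-fold. Neither probe passed 2-fold in any comparison. The splice form that a probe reads is not stated in the files, so no direction is given for the gene.

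**Figure D4:**
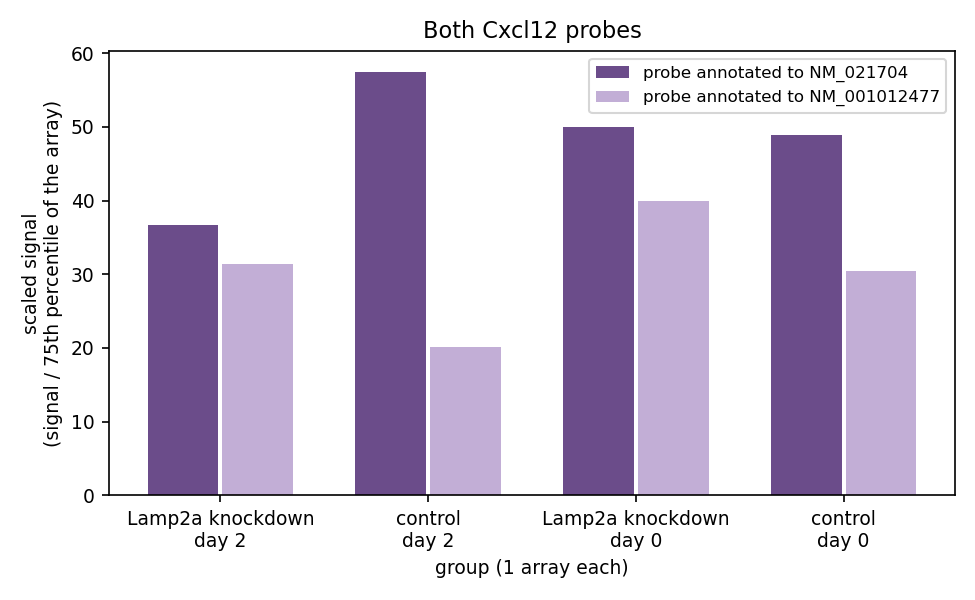
Scaled signal of both Cxcl12 probes in the 4 groups, 1 array each, the probe annotated to NM_021704 as the left bar of each pair and that annotated to NM_001012477 as the right bar. At day 2 the first probe is lower in knockdown (36.7) than in control cells (57.4) and the second is higher in knockdown (31.4) than in control cells (20.1); heights are compared within a probe only.

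Cxcl13, which draws B cells through CXCR5 and is best known from lymphoid stroma, was the member that differed most between the days. Its processed signals were 1736 in knockdown and 10459 in control cells at day 2, and 30.5 in knockdown and 24.4 in control cells at day 0. As scaled signal this was 1.57 in knockdown and 8.43 in control cells at day 2, with 0.0183 in knockdown and 0.0153 in control cells at day 0. The gene was near background in both kinds of cell at confluence and well above it in both after induction, with control cells higher. At day 2 the Cxcl13 signal of knockdown cells was 5.36-fold below that of control cells, the largest knockdown difference among the 9 genes. In control cells it was at least 477-fold higher at day 2 than at day 0, where the day 0 signal was not well above background and was replaced by the lowest signal that was. In knockdown cells the ratio of the signals was 86.0-fold. The software marked the day 0 signal there as well above background, but it lay below the median of the olfactory receptor genes on that array (39.8), so this fold is taken against a background reading and is not a measured size. At day 0 the same bound gave a ratio of at least 1.04-fold higher in knockdown cells. The sizes of the time courses depend on how background is treated: over the settings the log2 ratio ran from 4.87 to 6.90 in knockdown cells and from 7.14 to 8.96 in control cells.

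Cx3cl1, also called fractalkine, is made as a membrane-bound adhesion molecule and shed as a chemokine, and acts on CX3CR1. Its scaled signal was 30.2 in knockdown and 21.2 in control cells at day 2, and 15.4 in knockdown and 9.56 in control cells at day 0. As with Cxcl1, knockdown lay above control on both days and day 2 above day 0 in both kinds of cell. Knockdown cells were 1.42-fold higher at day 2 and 1.62-fold higher at day 0. Day 2 was 1.96-fold higher than day 0 in knockdown cells and 2.22-fold higher in control cells, on either side of the 2-fold size. Over the processing settings the log2 ratio of the knockdown time course ran from 0.78 to 1.01. It passed 2-fold in 1 of them, the signal before detrending.

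The knockdown log2 ratio at day 2 minus that at day 0 shows how far the knockdown difference itself moved between the days, which equals the knockdown time course minus the control time course. It draws on all 4 arrays and was not tested. Of the 8 members well above background on all arrays, 2 had a difference past 2-fold and both were lower, Cxcl10 at -2.03 and Ccl5 at -1.80 on the log2 scale. Over all 15453 genes with a value, 16.8% were at least 2-fold lower and 2.90% higher, and among bright genes 6.63% and 2.66%. Ccl2 had a difference of -0.86, Cxcl12 of -0.68 by its brighter probe and Ccl7 of -0.52. Cxcl1 had 0.42, Cxcl5 0.31 and Cx3cl1 -0.18, and none of these 6 passed 2-fold. The median over the 8 members was -0.60, beside -0.03 over all genes and 0.08 over bright genes. It takes Cxcl12 by its brighter probe.

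Genes whose profile over the 4 arrays was closest to that of a member were sought among 15452 genes, with the root mean square (RMS) of the difference between log2 profiles, each centred on its own mean, as the measure. With 4 arrays many genes come close to any profile, and the names are a description. Closest to Ccl2 were Chadl, Treml1 and Tor4a, the first at an RMS of 0.090. Closest to Ccl7 were Eno3, Gpx7 and Fap, from 0.063, and closest to Ccl5 were H2ac22, Dyrk3 and Odc1, from 0.056. Cxcl10 had no neighbour nearer than Mrvi1 at 0.22, followed by another chemokine, Ccl11, and by Abca9, both at 0.26. Ccl11 is dim, and its knockdown signal at day 2, 24.9, lay near the olfactory receptor median of that array (23.6). Cxcl1 was closest to P4ha2, Il6ra and Pttg1ip2, from 0.031, and Cxcl5 had Spon2, at 0.045, and Srpk2 among its closest. Cx3cl1 was closest to Nr2f2, Traf3ip3 and Ankrd61, from 0.041, and the brighter Cxcl12 probe to Sephs2, Olfr94 and Plscr1, from 0.026. Among the members themselves the closest pair was Cxcl1 and Cx3cl1, at 0.18, where Cx3cl1 ranked 141 of all genes for Cxcl1. Cxcl1 and Cxcl5 followed at 0.34 and Ccl5 and Ccl7 at 0.36. The adjacent genes Ccl2 and Ccl7 were 0.53 apart.

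In the gene order of the GRCm38.p6 table used, 7 of the 10 members have another chemokine gene as a direct neighbour. Ccl2, Ccl7 and Ccl11, the eosinophil attractant eotaxin, lie in a row on chromosome 11, and each was at least 2-fold lower at day 2 in both kinds of cell. Ccl11 is a dim gene, with scaled signals of 0.0226 in knockdown and 0.0677 in control cells at day 2 and of 0.316 in knockdown and 0.366 in control cells at day 0. It was 14.0-fold lower at day 2 in knockdown cells and 5.41-fold lower in control cells. At day 2 knockdown cells were 3.00-fold below control cells. The processed signal of knockdown cells at day 2, 24.9, lay near the median of the olfactory receptor genes on that array (23.6). The 14.0-fold and the 3.00-fold are therefore taken against a background reading and are not measured sizes. Ccl5 has Ccl9 beside it on the same chromosome, a myeloid cell attractant of the mouse, and both stood in opposite order on the 2 days. Ccl9 had scaled signals of 1.23 in knockdown and 1.75 in control cells at day 2 and of 11.1 in knockdown and 6.19 in control cells at day 0. Cxcl5 lies beside Ppbp on chromosome 5, the platelet basic protein gene, which was 2.62-fold higher in knockdown cells at day 2 (0.411, against 0.157 in control cells). Cx3cl1 lies between Ccl22 and Ccl17 on chromosome 8. Ccl17, an attractant of T cells, was 3.66-fold higher at day 2 in knockdown cells and 3.35-fold higher in control cells, and Ccl22 was not well above background.

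Of 27 other chemokine ligand genes, 26 are on the array, and 7 of them are bright. At day 2 against day 0, 6 of 21 compared were at least 2-fold lower and 3 higher in knockdown cells, and 6 of 19 were lower and 5 higher in control cells. Over all genes the shares were 8.94% lower and 4.97% higher in knockdown cells, and 8.08% lower and 19.9% higher in control cells. Among bright genes they were 9.22% and 6.17% in knockdown cells, and 7.75% and 7.60% in control cells. In control cells the higher genes other than Ccl17 and Ccl28 were dim genes given as bounds against the control day 0 array. The lower ones included Ccl8, a monocyte attractant, 5.26-fold lower in knockdown and 11.9-fold lower in control cells, and Ccl9, 8.996-fold and 3.54-fold lower. The dim genes Ccl6 (4.61-fold and 5.64-fold) and Pf4 (6.02-fold and 4.21-fold) were lower in knockdown and control cells too. Among the higher ones were Ccl17 and the dim gene Ccl28, 3.46-fold higher in knockdown and 4.67-fold higher in control cells, and Ccl25, 2.08-fold higher in knockdown cells and 1.77-fold higher in control cells. Between knockdown and control, 1 of 19 was higher and 3 were lower at day 2, and 4 of 21 were higher and 4 lower at day 0. Over all genes these shares were 2.86% higher and 3.98% lower at day 2, and 18.3% higher and 4.18% lower at day 0. Cxcl9, which shares the receptor CXCR3 with Cxcl10, is dim and was lower in knockdown cells on both days, by 2.66-fold at day 2 and 2.37-fold at day 0, whereas Cxcl10 was 1.22-fold higher at day 0. Ccl6 was lower in knockdown cells on both days as well, by 2.10-fold and 2.57-fold, and Ccl8 by 2.76-fold at day 0. The medians were -0.26 at day 2 and 0.16 at day 0 for knockdown over control, and -0.14 and -0.10 for the knockdown and control time courses.

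Receptors for these ligands were mostly at the edge of detection. Of 23 chemokine receptor genes, 18 could be compared and 2, Ccr7 and Ackr3, are bright. Ccr2, the receptor of Ccl2 and Ccl7, and Cxcr4, that of Cxcl12, were not well above background on any array. Ackr3, a scavenging receptor for Cxcl12, chosen after its values were seen, had scaled signals of 10.9 in knockdown and 5.61 in control cells at day 2 and of 6.70 in knockdown and 4.08 in control cells at day 0. Knockdown cells were 1.93-fold above control cells at day 2 and 1.64-fold above them at day 0. Ccr7, which guides cells to lymph nodes, had 0.339 in knockdown and 0.691 in control cells at day 2, and 0.225 in knockdown and 0.101 in control cells at day 0. It was the 1 receptor past 2-fold between knockdown and control at day 2, 2.04-fold lower. In the comparisons that use the control day 0 array, 8 of 18 receptors passed 2-fold higher in knockdown cells (day 0) and 10 of 18 passed it at day 2 in control cells, all of them dim genes except Ccr7; over all genes 18.3% and 19.9% were so. Cxcr1, Cx3cr1 and Cxcr3 led at day 0, at 5.45-fold, 4.93-fold and 4.07-fold, the first pair as bounds, and Ccr7, Cxcr3 and Cxcr1 led in the control time course. Within slide 2 the count in the knockdown time course was 1 of 18, Ccrl2 at 2.54-fold higher. The part of the low reading of dim probes on the control day 0 array in these counts was not tested.

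Genes tied to NF-kB moved in both directions, and those named in this paragraph were chosen after their values were seen. The list of 28 mixes inducers and parts of the NF-kB pathway with genes it induces, so it is no measure of upstream input alone. Of these, 25 were compared between the days in knockdown cells, with 9 higher and 3 lower at day 2. In control cells 7 of 25 were higher and 4 lower. Over all genes, 4.97% were higher and 8.94% lower in knockdown cells, and 19.9% higher and 8.08% lower in control cells. Nfkbia, the inhibitor of NF-kB that glucocorticoids induce, was 2.08-fold higher at day 2 in knockdown cells and 2.99-fold higher in control cells. The receptor gene Tlr2 was 3.81-fold lower in knockdown cells and 4.70-fold lower in control cells. Il6, a cytokine of the same pathway, stood in opposite order on the 2 days, with scaled signals of 1.21 in knockdown and 0.513 in control cells at day 2 and of 0.130 in knockdown and 0.390 in control cells at day 0. Between knockdown and control, Il6 and the dim gene Lif were the 2 of 24 at least 2-fold higher at day 2, where 2.86% of all genes were. The sizes were 2.36-fold and 2.85-fold. The processed Lif signal of control cells at day 2, 19.0, lay below the olfactory receptor median of that array (28.7). The fold of Lif is therefore taken against a background reading and is not a measured size. The medians of the list were 0.20 and -0.21 for the knockdown and control time courses, and 0.43 at day 2 and 0.23 at day 0 for knockdown over control.

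Of 12 interferon factors and interferon-induced genes, 9 were at least 2-fold lower at day 2 in knockdown cells and 11 in control cells, with medians of -2.71 and -3.40, where 8.94% and 8.08% of all genes were lower. In knockdown cells 5 of 12 were at least 2-fold lower than in control cells at day 2 and 9 of 12 at day 0. The medians were -0.55 and -1.54, and 3.98% and 4.18% of all genes were lower. At day 2, 1 of 12 was at least 2-fold higher in knockdown cells, where 2.86% of all genes were. This was Gbp2, with scaled signals of 3.32 in knockdown and 1.40 in control cells. Gbp3 and Irf1 were higher in knockdown cells at day 2 too, by less than 2-fold. The genes named here were also chosen after their values were seen. Isg15 had scaled signals of 3.46 in knockdown and 7.47 in control cells at day 2, and of 29.6 in knockdown and 91.2 in control cells at day 0. Cxcl10 and Ccl5, the members most tied to interferon as background, were 1.22-fold and 1.65-fold higher in knockdown cells at day 0. At day 2 against day 0, Cxcl10 passed 2-fold lower in both kinds of cell, and Ccl5 in knockdown cells but not in control cells (1.36-fold lower). Irf1, an interferon regulatory factor, was the list's exception in the control time course, 1.30-fold lower at day 2. All 5 glucocorticoid receptor targets, Fkbp5, Tsc22d3, Per1, Dusp1 and Zbtb16, were at least 2-fold higher at day 2 in both kinds of cell, with median log2 ratios of 3.22 in knockdown and 3.23 in control cells.

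Markers of the leukocytes that chemokines attract were set beside the results. The summed scaled signal of 7 macrophage and monocyte markers was 37.7 in knockdown and 27.3 in control cells at day 2, and 30.6 in knockdown and 17.6 in control cells at day 0. The sum runs over probes of unequal response, so it is set only against the same sum on the other arrays. Itgam by itself had 35.0 in knockdown and 23.8 in control cells at day 2, with 27.2 in knockdown and 14.2 in control cells at day 0. Itgam thus made up most of each sum. Csf1r and Cd14 were the other bright ones, and both were lower in knockdown cells at day 2. Csf1r had 1.73 in knockdown and 2.44 in control cells there, and Cd14 had 0.750 and 0.795. At day 0 Csf1r was higher in knockdown cells and Cd14 lower. Adgre1, Ptprc, Lyz2 and Tyrobp were dim on the arrays. Of these Adgre1, Ptprc and Lyz2 were lower in knockdown cells at day 2, and at day 0 only Lyz2 was. The sums of 3 neutrophil markers were 0.565 in knockdown and 1.00 in control cells at day 2, with 0.258 in knockdown and 0.206 in control cells at day 0. No eosinophil marker of 4 was bright. T and B cell markers summed to 3.77 in knockdown and 4.28 in control cells at day 2, and to 4.20 in knockdown and 2.46 in control cells at day 0. Endothelial markers, as another cell type of fat tissue, summed to between 2.93 and 3.88 on the 4 arrays. All arrays read RNA from cultures of 3T3-L1, a fibroblast line and not a tissue with leukocytes or vessels. Where these marker signals come from was not tested.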

How the data were processed

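Total RNA of 4 cultures was labelled with Cy3 and hybridised to Agilent mouse arrays of design 028005, per the labels and the file headers. Agilent Feature Extraction 10.7.3.1 made the deposited processed signals, intensity values on a linear scale after background subtraction, per the file headers. A multiplicative detrending was applied on 3 arrays and not on knockdown day 0, and control day 0 was deposited rounded to 3 digits, against 7 on the others. Groups were taken from the labels.

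From these intensity values, control spots and spots marked as non-uniform or as population outliers were left out, signals were divided by the 75th percentile of the array's 59305 spots, log2 was taken and repeat spots were averaged. Probes were named by unversioned accession in RefSeq's GRCm38.p6 table, where 27656 of 55681 probes matched 20972 genes. The probe with the highest mean level stands for a gene. Genes entered a comparison if the software marked them as well above background on 1 or both of its arrays. A dim side was then raised to the lowest level well above background on its array, giving a bound, and a bound that read the wrong way was set to 0. A fixed size of 2-fold calls a difference, since 1 array per group allows no test. The number of arrays limits the precision. No spot was saturated.

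Named were all members with every probe, Lamp2, up to 3 other ligands and 3 receptors with the largest difference past 2-fold per direction and comparison, and the 3 nearest profiles of each member well above background on all arrays. Not every gene so taken is printed, and 1 of the nearest profiles is not reported here. The members, lists, markers and tests were chosen with earlier results of these data known. Settings tried were normexp (offset 50, on the median signal and local background), quantile and cyclic loess normalization (3 iterations), another percentile, a stricter dim-probe filter, the median over a gene's probes, outlier spots kept and a 1.5-fold size, and, after seeing the data, the signal before detrending, bright genes alone and the other Cxcl12 probe. The call at 2-fold was checked on simulated data. The tools were limma 3.58.1 in R 4.3.3, and numpy 2.4.6, pandas 2.3.3 and matplotlib 3.10.9 in Python 3.11.15.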

Additional observations from a re-analysis of the deposited data

Results flagged for a closer look

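In Cxcl10, Ccl5 and Ccl2 knockdown cells read above control cells at day 0, by more than the spot SD, and below them at day 2. Cxcl12 (0.03 at day 0) and Cxcl13 (a bound of 0.05) changed sign too, with day 0 values under that SD. The log2 ratio of knockdown over control was -1.75 at day 2 and 0.28 at day 0 for Cxcl10, a difference of -2.03. For Ccl5 it was -1.07 at day 2 and 0.72 at day 0, a difference of -1.80. For Ccl2 it was -0.62 at day 2 and 0.24 at day 0, a difference of -0.86. In Cxcl12 the direction between the days depended on the kind of cell, by the probe annotated to NM_021704: the log2 ratio of day 2 over day 0 was -0.45 in knockdown and 0.23 in control cells, a difference of -0.68. The other Cxcl12 probe was lower at day 2 in both kinds of cell. With 1 array per group none of these differences was tested, and each uses the control day 0 array, which lies alone on its slide.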

How the results depend on the processing

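No paired analysis was possible because each group has 1 array and no test was run. Of the counts of members past 2-fold, 66 stayed within 1.5 times the main count and 6 did not, over all settings and comparisons. With a 1.5-fold size, 2 members were higher and 6 lower in knockdown cells at day 2, and 3 were higher at day 0. The 6 include Cxcl12, whose other probe was past that size in the other direction. In the knockdown time course, 1 member was higher after quantile and 1 after cyclic loess normalization, where Cxcl1 missed the size. With the signal before detrending 3 were higher there, as Cx3cl1 reached the size. In the control time course, 1 was higher where both arrays had to be well above background, since Cxcl13 then has no value. Some settings left most member values fixed, as 9 of the 10 members have 1 probe and Ccl2 alone has repeat spots. The stricter dim-probe filter also leaves any ratio it keeps unchanged. Such settings add by construction to the counts and ratios that did not move. Of the log2 ratios of members, 206 moved by less than the median spot SD of probes printed many times and 84 by more. Among the members the sign changed for Cxcl12 alone, apart from bounds of Cxcl13 at day 0 that were set to 0. The cause was not tested. For Cxcl12 the median of both probes gave 0.00 at day 2, 0.21 at day 0 and -0.19 in the control time course, and at day 0 normexp gave -0.07, quantile -0.02 and the signal before detrending -0.08. Its other probe alone also turned the sign at day 2, to 0.64. Quantile and cyclic loess brought the median of all genes to 0, which was 0.12 at day 0 and 0.18 in the control time course. The counts of all genes behind the percentages moved more. At day 0, 3522 genes were higher and 806 lower in knockdown cells, with 1315 higher after normexp, 1095 higher and 1295 lower after quantile, and 980 higher and 1725 lower after cyclic loess. In the control time course, 3712 were higher and 1507 lower, with 1778 higher after normexp, 1264 after quantile and 1128 after cyclic loess, which left 2623 lower. At day 2, 738 were lower in knockdown cells, and 452 after normexp. Signal over background limits Cxcl2 and the day 0 level of Cxcl13.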
